A study of Mus musculus with 6 samples.

Results

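The genes described here encode proteins that stomach and pancreas gland cells secrete to digest food, together with intrinsic factor, the carrier of vitamin B12. The 10 genes were chosen by symbol and all 10 were found among the 38720 rows of the deposited table of normalized counts. They are Pgc, Pga5 and Cym, which encode pepsin-type proteases, Gif (intrinsic factor), Chia (acidic chitinase), Clps (colipase), Pla2g1b (pancreatic-type phospholipase A2), Lipf (gastric lipase), Cpb1 (carboxypeptidase B) and Ctrb1 (chymotrypsinogen B). The study sequenced RNA from 3 libraries of Cldn18 knockout mice (labelled CLDN18-/-) and 3 of wild-type mice (CLDN18+/+), all of strain B6:129S5. Claudin 18 helps to seal the junctions between stomach epithelial cells. In both genotypes the neck region of the corpus gland was cut from unfixed frozen sections by laser capture microdissection. The labels give an age of 7 weeks and the design text 7 days for both genotypes, so the age was not settled here. No label says whether the libraries of a genotype came from separate animals, so the p-values below measure the spread between these libraries, which may be technical.

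Chief cells at the base of the corpus gland pack enzyme precursors into zymogen granules and release them on stimulation. Pepsinogens are cleaved to active pepsins in acid, and chitinase breaks down the chitin of insects and fungi. In the mouse, intrinsic factor is made mainly by chief cells, whereas in humans it comes from parietal cells. Colipase holds lipase on the surface of fat droplets, and phospholipase A2 of this type releases a fatty acid from phospholipids. Both are best known as products of the pancreatic acinar cell, as are carboxypeptidase B and chymotrypsinogen B. Chymosin is the milk-clotting protease of young mammals.

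The start regions of 4 of the genes are shown because these genes stand for different responses: Pgc, the most abundant, Gif and Chia fell by different amounts, and Cym, a pepsin-type gene like Pgc, did not fall. RefSeq windows of 300 bases in build GRCm38.p6 (250 before and 50 after the annotated start) were matched for 8 of the 10 genes, all but Pga5 and Clps. Capitals mark TATAAA and AAGGTCA, letters bound by some nuclear receptors, each searched on both strands.
Pgc, chr17:47726592-47726891, plus strand: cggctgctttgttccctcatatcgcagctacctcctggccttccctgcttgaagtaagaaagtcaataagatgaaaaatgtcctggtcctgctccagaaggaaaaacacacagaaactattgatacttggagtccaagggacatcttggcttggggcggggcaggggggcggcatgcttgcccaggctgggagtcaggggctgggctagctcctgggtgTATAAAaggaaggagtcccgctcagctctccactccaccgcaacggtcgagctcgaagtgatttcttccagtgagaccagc
Gif (Cblif in RefSeq), chr19:11747309-11747608, plus strand: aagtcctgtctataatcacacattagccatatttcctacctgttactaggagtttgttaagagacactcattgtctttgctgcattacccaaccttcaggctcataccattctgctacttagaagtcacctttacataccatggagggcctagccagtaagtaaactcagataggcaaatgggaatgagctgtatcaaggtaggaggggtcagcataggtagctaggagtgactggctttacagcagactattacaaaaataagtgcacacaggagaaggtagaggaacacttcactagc
Chia (Chia1 in RefSeq), chr3:106113132-106113431, plus strand: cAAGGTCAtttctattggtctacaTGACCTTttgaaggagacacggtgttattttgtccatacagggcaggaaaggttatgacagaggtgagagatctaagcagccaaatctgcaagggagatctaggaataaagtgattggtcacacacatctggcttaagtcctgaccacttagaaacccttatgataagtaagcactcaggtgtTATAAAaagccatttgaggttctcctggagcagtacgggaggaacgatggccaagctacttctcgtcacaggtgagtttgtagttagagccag
Cym, chr3:107221683-107221982, minus strand: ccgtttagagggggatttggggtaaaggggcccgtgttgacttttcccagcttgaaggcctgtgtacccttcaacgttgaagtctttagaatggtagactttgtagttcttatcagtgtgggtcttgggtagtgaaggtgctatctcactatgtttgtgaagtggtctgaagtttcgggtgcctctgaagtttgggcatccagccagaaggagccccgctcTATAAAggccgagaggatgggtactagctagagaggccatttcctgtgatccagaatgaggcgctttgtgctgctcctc
TATAAA was found in the windows of Pgc, Cym, Chia and Cpb1, beginning 31, 29 and 43 bases before the start in the first 3 of these, and 13.6% of all 32851 mouse windows hold it. AAGGTCA was found in the window of Chia alone among the 8, once on each strand, against 4.72% of all windows. CATATG, the E-box letters bound by the chief cell factor Mist1 (the product of Bhlha15), was in none of the 8 windows and in 3.91% of all windows. The Chia window is placed on a RefSeq start that lies 153 bases from the GENCODE gene start. These matches describe letters only.

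The libraries held 37673283 to 52842813 reads on genes, recovered from the deposited values. The locus Gm26924 took 40.7% to 41.1% of reads in the knockout and 38.6% to 45.4% in wild-type. Mitochondrial genes took 1.25% to 1.56% of reads in the knockout and 3.28% to 4.28% in wild-type, and the part of this difference in the results below was not tested. The targeted gene, Cldn18, had 13035, 16798 and 15818 normalized counts in the knockout and 30498, 21210 and 23241 in wild-type (log2 difference -0.71 ± 0.20 SE, limma adjusted p = 0.0134). The call was lost without knockout replicate 1 (adjusted p = 0.0896). The sources used here do not say which part of the gene was deleted.

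Pgc, Clps, Pla2g1b, Chia and Gif, the digestive genes with the highest wild-type levels, were far lower in the knockout, Pga5 was somewhat lower, and the rest were not called or not tested. Of the 10 genes, 9 reached 10 normalized counts in 3 or more libraries and were tested, and 7 of these reached 10 in all 6 libraries. Chia passed only through its wild-type values and Ctrb1 only through its knockout values. The counts and the median that follow thus describe the genes that passed. Pgc, Pga5, Gif, Chia, Clps and Pla2g1b fell (limma on log2(normalized count + 1), adjusted p under 0.05 over 17432 genes), and Cym, Cpb1 and Ctrb1 were not called. Over all genes tested 21.5% were called lower and 23.3% higher, 44.7% in all. The median log2 difference was -3.94 over the 9 genes and -0.02 over all genes tested. Values of the 2 genotypes did not overlap for the 6 genes called lower, and the other 4 genes overlapped. Of all genes tested 27.1% had every knockout value below every wild-type value, 28.1% had every one above, and 55.2% thus did not overlap. No gene of the 10 was called higher by limma, although 2 had an unadjusted p under 0.05 (Cym and Ctrb1), and edgeR and DESeq2 on the recovered reads each called 1, Cym. In RNA from dissected tissue, fewer cells of a type and less RNA per cell cannot be told apart.

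**Figure D1:**
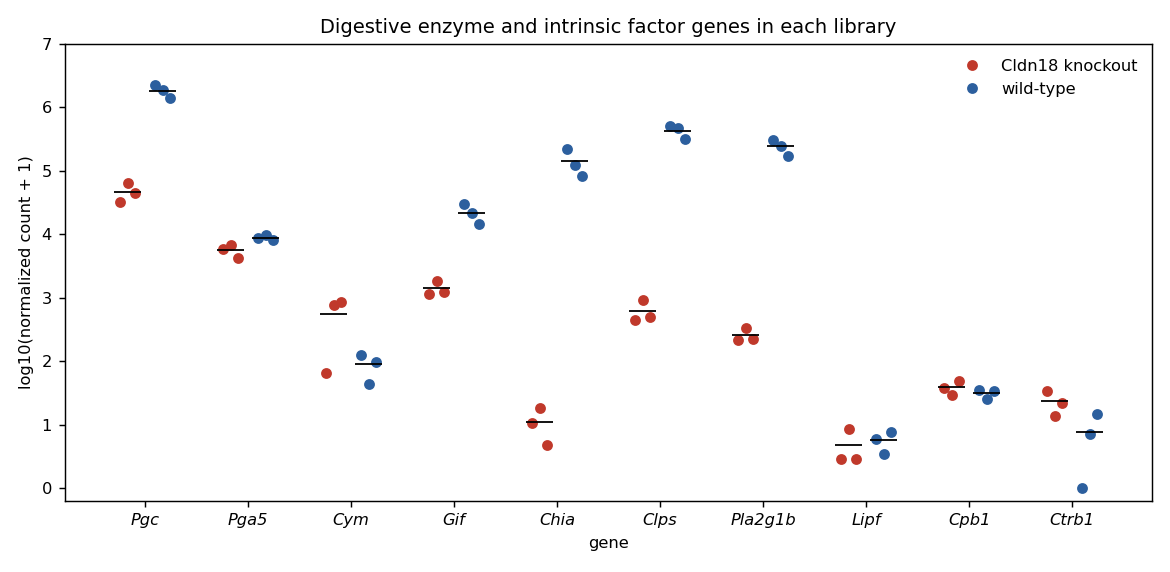
Level of each of the 10 genes in each library, as log10(normalized count + 1); red points are Cldn18 knockout and blue points wild-type, in the order of replicates 1 to 3, and black lines are group means. Pgc, Gif, Chia, Clps and Pla2g1b show a wide gap between the genotypes, Pga5 a narrow one, and Lipf, Cpb1 and Ctrb1 lie near the bottom of the scale in both.

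The pepsin-type genes behaved in 3 different ways. Pgc (ENSMUSG00000023987.14, chromosome 17, 47726842 to 47734482, plus strand, mm10), the precursor of pepsin C, had 32176, 64648 and 44931 normalized counts in knockout replicates 1, 2 and 3, against 2237080, 1878279 and 1396540 in wild-type replicates 1, 2 and 3. Each knockout library was far below each wild-type library. The means were 47252 ± 16360 in the knockout and 1837300 ± 421766 in wild-type (SD, n = 3 each), so the knockout mean was 2.57% of the wild-type mean. The log2 difference was -5.31 ± 0.50 (SE, limma adjusted p = 1.91e-05). Pgc nevertheless remained an abundant transcript. It ranked 49, 21 and 34 by reads among all genes in knockout replicates 1, 2 and 3, and 2 in every wild-type library, where Gm26924 alone stood above it.

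Pga5 (ENSMUSG00000024738.6, chromosome 19, 10668956 to 10678071, minus strand), which encodes a pepsinogen A, had 5894, 6828 and 4158 normalized counts in the knockout, against 8648, 9637 and 8119 in wild-type. The groups did not overlap, but the gap was small beside that of Pgc: the knockout mean was 63.9% of the wild-type mean (log2 difference -0.67 ± 0.19 SE, limma adjusted p = 0.0141). The call was lost without knockout replicate 3 (log2 difference -0.47, adjusted p = 0.0665) and without wild-type replicates 2 and 3, a choice added after seeing the data (adjusted p = 0.0937). Within a library, Pgc stood at 5.46, 9.47 and 10.8 times the normalized count of Pga5 in the knockout and at 259, 195 and 172 times in wild-type. Every knockout ratio was below every wild-type ratio (exact permutation test, two-sided, p = 0.1, a minimum set by 3 libraries a group, and 0.1 when adjusted over the 3 ratios compared).

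Cym (ENSMUSG00000046213.9, chromosome 3, 107211293 to 107221732, minus strand), the chymosin gene, had 64.2, 780 and 847 normalized counts in knockout replicates 1, 2 and 3, against 125, 42.0 and 97.1 in wild-type. Knockout replicates 2 and 3 lay above the wild-type range and knockout replicate 1 lay inside it. The log2 difference was 2.12 ± 0.83 (SE, 95% interval 0.27 to 3.96) and was not called by limma (adjusted p = 0.0608). The call depended on single libraries and on the test. Without knockout replicate 1 the log2 difference was 3.33 (limma adjusted p = 4.29e-04), and without wild-type replicate 1 it was 2.43 (0.0488). For Cym edgeR gave an adjusted p of 0.0233 and DESeq2 one of 0.0254, whereas the authors' deposited table gives 0.145, and over all alternatives the adjusted p ran from 4.29e-04 to 0.406.

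The gene of the vitamin B12 carrier also fell. Gif (ENSMUSG00000024682.3, chromosome 19, 11747554 to 11763447, plus strand) had 1164, 1818 and 1220 normalized counts in the knockout, against 29755, 21879 and 14504 in wild-type. No knockout library came near the lowest wild-type library. The knockout mean was 6.35% of the wild-type mean (log2 difference -3.94 ± 0.26 SE, limma adjusted p = 1.83e-06). The ratio of Pgc to Gif was 27.6, 35.6 and 36.8 in the knockout and 75.2, 85.8 and 96.3 in wild-type (exact permutation test, two-sided, p = 0.1, again the minimum, and 0.1 when adjusted).

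The chitinase gene was almost undetected in the knockout. Chia (ENSMUSG00000062778.12, named Chia1 in GENCODE, chromosome 3, 106113229 to 106132120, plus strand) had 9.44, 17.0 and 3.84 normalized counts in the knockout, against 221663, 123475 and 82400 in wild-type. The knockout values rested on 10, 23 and 4 reads, with 95% Poisson intervals of 4.53 to 17.4, 10.8 to 25.5 and 1.05 to 9.84 normalized counts that cover counting error only. Wild-type libraries differed among themselves by up to 2.69 times, a spread that is small beside the gap between genotypes. The log2 difference was -13.72 ± 0.44 (SE, limma adjusted p = 3.87e-08), the most negative of all 17432 genes tested, on a scale that understates the change of a gene this low in one group. The closest transcripts of other genes were those of Chil5 (78.1% identity over 1162 bases) and Chil6 (75.9% over 1239 bases).

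The colipase and phospholipase A2 genes both fell to about 0.1% of their wild-type level. Clps (ENSMUSG00000024225.5, chromosome 17, 28558149 to 28560766, minus strand) had 441, 915 and 498 normalized counts in the knockout, against 513405, 466718 and 313024 in wild-type. Pla2g1b (ENSMUSG00000029522.12, chromosome 5, 115466262 to 115474722, plus strand) had 213, 338 and 221 in the knockout, against 304384, 248971 and 174582 in wild-type. For both genes every knockout library was far below every wild-type library, and replicate 2 was the highest knockout library. The knockout mean was 0.143% of the wild-type mean for Clps (log2 difference -9.49 ± 0.28 SE, limma adjusted p = 3.27e-08) and 0.106% for Pla2g1b (log2 difference -9.87 ± 0.23 SE, limma adjusted p = 8.98e-09). After Chia, these were the next most negative log2 differences of all genes tested. The ratio of Clps to Pla2g1b was 2.07, 2.71 and 2.25 in the knockout and 1.69, 1.87 and 1.79 in wild-type, higher in each knockout library (exact permutation test, two-sided, p = 0.1, again the minimum, and 0.1 when adjusted). No transcript of another gene matched either over 100 bases or more.

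**Figure D2:**
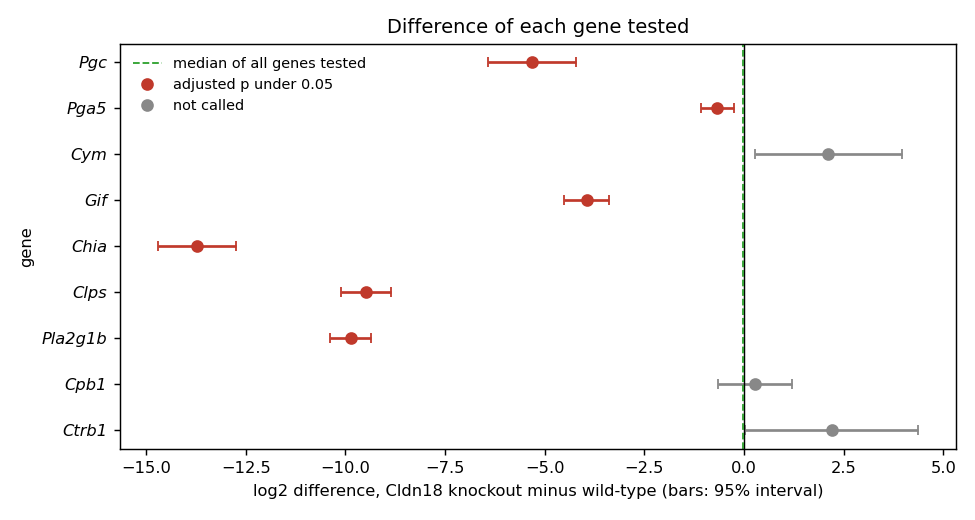
Log2 difference, Cldn18 knockout minus wild-type, of the 9 genes tested, with 95% intervals from limma; red points passed an adjusted p of 0.05, grey points did not, and the dashed line is the median of all genes tested. Chia, Clps and Pla2g1b lie beyond -9, Pgc and Gif between -6 and -3, and Pga5 at -0.67.

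**Figure D3:**
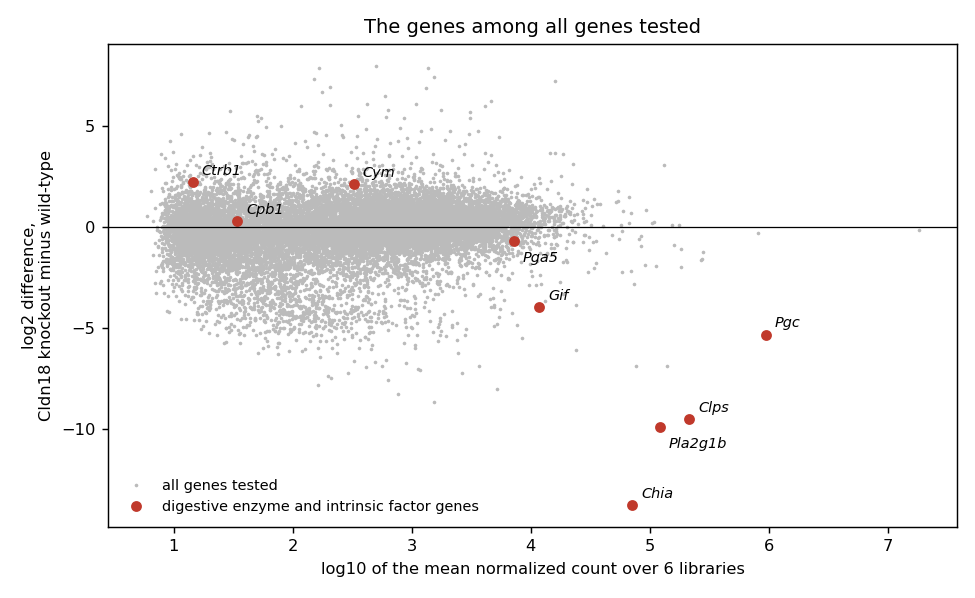
Log2 difference, Cldn18 knockout minus wild-type, against the log10 mean normalized count over 6 libraries; grey dots are the 17432 genes tested and red points the digestive genes. Chia, Pla2g1b and Clps lie below every other gene, and Pgc stands at the far right among the genes that fell.

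Among the 10 genes, gastric lipase and the pancreatic proteases Cpb1 and Ctrb1 had low values in both genotypes. Lipf (ENSMUSG00000024768.5, chromosome 19, 33961187 to 33976810, plus strand) had 1.89, 7.39 and 1.92 normalized counts in the knockout and 4.90, 2.47 and 6.80 in wild-type, on 2 to 10 reads per library. It was below the filter, and the groups overlapped. Cpb1 (ENSMUSG00000011463.5, chromosome 3, 20248264 to 20275733, minus strand) had 36.8, 28.8 and 47.1 in the knockout and 34.3, 24.7 and 33.0 in wild-type. Its groups also overlapped, and the log2 difference of 0.27 had a 95% interval of -0.65 to 1.20 (limma adjusted p = 0.629). Ctrb1 (ENSMUSG00000031957.6, chromosome 8, 111686519 to 111691010, minus strand) had 33.1, 12.6 and 21.1 in the knockout and 0, 6.17 and 13.6 in wild-type. Wild-type replicate 1 held no read, which allows up to 3.67 normalized counts (3 reads, counting error only), and the ranges met between 12.6 and 13.6. Its log2 difference of 2.20 ± 0.98 (SE) was not called (limma adjusted p = 0.0922). It was called without wild-type replicate 3 (log2 difference 3.02, adjusted p = 0.0456), after quantile normalization (adjusted p = 0.0282) and without wild-type replicates 2 and 3 (adjusted p = 0.00762).

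Per kilobase of exon (all annotated exons of a gene, overlaps counted once), the order of the genes differed between the genotypes. In the knockout the order by mean normalized count per kilobase was Pgc (34043 ± 11787 SD, n = 3), Pga5 (3484 ± 839), Clps (1012 ± 424), Gif (911 ± 236), Cym (456 ± 351), Pla2g1b (361 ± 98), Ctrb1, Cpb1, Chia and Lipf, the last 4 between 2.65 and 25.3. In wild-type it was Pgc (1323703 ± 303866 SD, n = 3), Clps (705482 ± 171595), Pla2g1b (340316 ± 91350), Chia (74888 ± 37602), Gif (14344 ± 4962), Pga5 (5450 ± 477), Cym (71.2 ± 34.1), Cpb1, Ctrb1 and Lipf, the last 3 between 3.35 and 9.34. Library ranges of neighbours overlapped in the knockout for Clps with Gif, Cym with Pla2g1b, and each neighbouring pair from Ctrb1 to Lipf. In wild-type they overlapped for Cpb1 with Ctrb1 and for Ctrb1 with Lipf. Chia thus stood 9 of 10 in the knockout and 4 of 10 in wild-type, while Pga5 stood 2 in the knockout and 6 in wild-type. The order of low genes depends on the exon length used, 3284 bases for Cpb1 and 878 for Ctrb1. By mean normalized count in the knockout, Cpb1 (37.6) stood above Ctrb1 (22.3).

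Together the 10 genes took 0.165%, 0.335% and 0.200% of reads outside Gm26924 and the mitochondrial genome in knockout replicates 1, 2 and 3, against 11.9%, 10.2% and 8.77% in wild-type. The share was 0.233% ± 0.090 in the knockout and 10.3% ± 1.6 in wild-type (SD, n = 3 each). The make-up of these reads changed as well. Pgc gave 80.4% to 86.5% of them in the knockout and 67.5% to 70.2% in wild-type, and Pga5 gave 8.0% to 14.7% in the knockout and 0.261% to 0.408% in wild-type. Clps, Pla2g1b and Chia, which made up most of the rest in wild-type, were a thin band in the knockout.

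**Figure D4:**
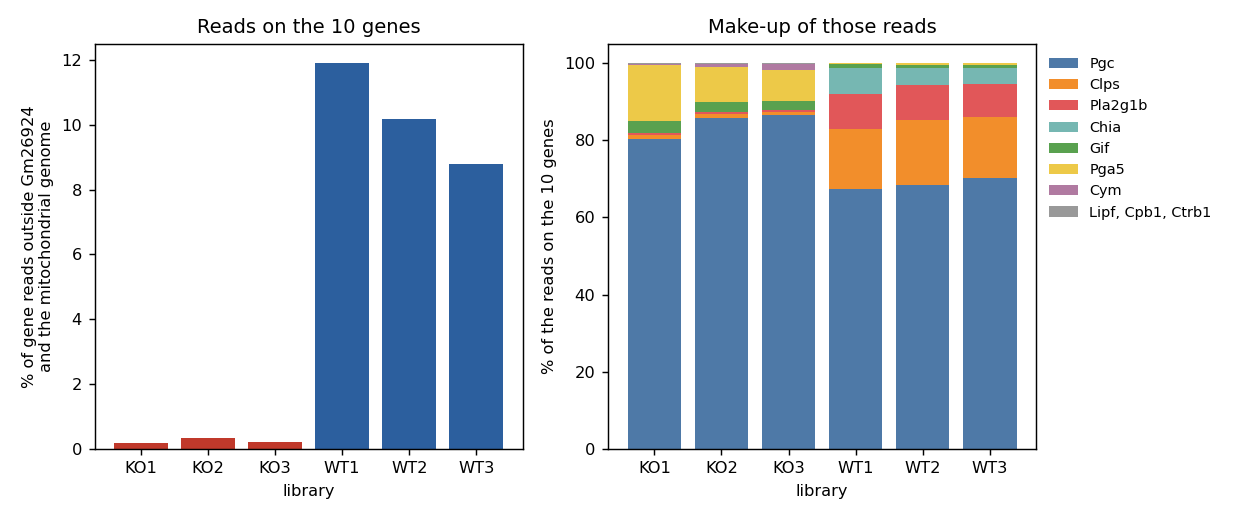
Left, percent of gene reads outside Gm26924 and the mitochondrial genome that fell on the 10 genes in each library (KO, Cldn18 knockout; WT, wild-type; numbers are replicates). Right, how those reads divided among the genes. The knockout libraries sit between 0.165% and 0.335% and the wild-type libraries between 8.77% and 11.9%.

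The 6 genes that fell differed in level between libraries of one genotype. All 6 were highest in knockout replicate 2 among the knockout libraries, as were 31.9% of genes tested and 43.9% of genes called lower. Knockout replicate 1 was the lowest for 4 of them, and replicate 3 for Pga5 and Chia (replicate 1 was lowest for 32.2% of genes tested). All 6 were lowest in wild-type replicate 3 among the wild-type libraries, as were 40.2% of genes tested and 42.1% of genes called lower. Wild-type replicate 1 was the highest for 5 of them, Pga5 being the exception, and for 46.1% of genes tested. Atp4a, which encodes the catalytic subunit of the gastric proton pump of parietal cells, had the same library order as Pgc, with 1175, 5217 and 2094 normalized counts in knockout replicates 1, 2 and 3, against 307686, 283956 and 239137 in wild-type. The part of this order in the results was not tested.

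Marker lists of other cell types are given beside the 44.7% of all genes tested that were called in either direction. Some markers passed the filter only through 1 genotype, among them Slc26a7 and Krt6a through wild-type and Gast through the knockout. The counts thus describe the genes that passed. Smooth muscle (3 of 6) and squamous markers (4 of 8) were called at a share near that of all genes in either direction. All of these calls were lower, however, and 21.5% of all genes tested were called lower. Of 14 parietal cell markers, 11 were lower, 1 was higher and 2 were not called (median log2 difference -5.03), and their summed level was 40846 to 51292 normalized counts in the knockout and 471305 to 612234 in wild-type. Of 6 mucous neck cell markers, 4 were higher, 1 lower and 1 not called (median 2.30), with sums of 101246 to 198667 in the knockout and 79252 to 102284 in wild-type. Dmbt1, a secreted scavenger protein gene, was among those that rose (log2 difference 3.63 ± 0.18 SE), while Muc6, which encodes a gland mucin, had a log2 difference of -1.71 (limma adjusted p = 2.07e-04). Tff2, the most abundant gene of the list, was the 1 not called (limma adjusted p = 0.136), though it was called higher in 4 of 20 alternatives. It had 133097, 81772 and 50052 normalized counts in the knockout, against 63075, 49936 and 39381 in wild-type, and the groups overlapped. Of 8 surface pit cell markers, 1 was higher, 4 lower and 3 not called (median -0.94), with sums of 337683 to 584793 in the knockout and 884135 to 1498873 in wild-type. Of 8 enteroendocrine markers 5 were higher, 1 was lower and 2 were not called (median 0.78; sums 35985 to 44500 in the knockout and 22350 to 35454 in wild-type). Endothelial markers gave 6 lower and 1 not called of 7 (median -1.38; sums 2116 to 3072 in the knockout and 4798 to 7790 in wild-type). Smooth muscle markers gave 3 lower and 3 not called of 6 (median -0.32; sums 8439 to 10061 in the knockout and 9526 to 13760 in wild-type). Macrophage and myeloid markers gave 4 higher and 3 not called of the 7 tested of 9 (median 1.10; sums 3465 to 6482 in the knockout and 1681 to 2318 in wild-type). Squamous markers gave 4 lower and 4 not called of the 8 tested of 10 (median -2.23; sums 304 to 450 in the knockout and 687 to 8346 in wild-type), and Krt5, a basal keratin gene, had 76.5, 57.6 and 51.9 in the knockout, against 220, 3219 and 1068 in wild-type. Some of these counts changed with the processing. After quantile normalization, 2 surface pit cell markers were higher and 2 lower. Without knockout replicate 2, 3 enteroendocrine markers were higher. The authors' deposited table gave 0 smooth muscle markers and 1 squamous marker lower. The part of these marker shifts in the digestive genes' differences was not tested.

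Pancreatic acinar markers were mixed, with some near 0 in both genotypes and others present. Of 19 acinar markers that are not among the 10 genes, 6 passed the filter and 7 stayed under 10 normalized counts in every library, among them Amy2a5, a pancreatic amylase gene, which had no read. Of the 6 tested, 1 was higher, 3 were lower and 2 were not called (median log2 difference -0.82). By comparison, 44.7% of all genes tested were called in either direction. The list summed to 1936 to 3035 normalized counts in the knockout and 2243 to 3294 in wild-type, most of it Cela1, Pnliprp1 and Cel. Cpa1, the acinar carboxypeptidase A gene, stood at 3.78, 2.22 and 3.84 in the knockout and 8.57, 0 and 2.91 in wild-type. Sycn, which encodes a zymogen granule protein and was named after its values were seen, had 20.8, 35.5 and 7.69 in the knockout, against 174, 148 and 122 in wild-type (log2 difference -2.95 ± 0.51 SE, limma adjusted p = 9.37e-04). Pnliprp1, a pancreatic lipase-related gene, had 437, 641 and 531 in the knockout, against 1460, 1177 and 790 in wild-type, and was also lower, as was Cel, the bile salt-activated lipase gene (195, 101 and 255 in the knockout, against 400, 506 and 234 in wild-type). The call of Cel was lost in 8 of 20 alternatives, among them without knockout replicate 1 (adjusted p = 0.0625) or 2 (0.13) and without wild-type replicate 1 (0.0681) or 2 (0.0864). The part of acinar tissue in the differences of Clps and Pla2g1b was not tested. Cela1, an elastase gene, was higher in the knockout (log2 difference 0.82 ± 0.27 SE, limma adjusted p = 0.0322). That call was lost in 9 of 20 alternatives, among them upper quartile scaling (adjusted p = 0.0873) and leaving out knockout replicate 1 (0.142) or 2 (0.122), or wild-type replicate 2 (0.0606) or 3 (0.0982).

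Genes related to the digestive enzymes by family moved both ways, as did all genes tested (21.5% called lower and 23.3% higher). Among pancreatic serine proteases 3 of 12 passed the filter, of which 2 (Try4 and Try10) were lower and 1 (Cela1) was higher. Try4 and Try10 passed only through their wild-type values, so these counts describe the genes that passed and not the family. The rest of the list was below the filter. The trypsinogen gene Try4 had 3.78, 5.91 and 7.69 normalized counts in the knockout, against 1242, 1428 and 1081 in wild-type (log2 difference -7.56 ± 0.32 SE, limma adjusted p = 1.10e-07). Try10, another trypsinogen gene, had 0, 2.22 and 0 in the knockout, against 359, 317 and 300 in wild-type, and was called lower (limma adjusted p = 4.42e-06). Its fitted log2 difference of -7.78 rests on 3 knockout reads and depends on the pseudocount. Try4 and Try10 transcripts are 94.0% identical over 789 bases, and Try4 is 97.1% identical to Try5, so the division of reads among these copies is uncertain. Of 15 lipase genes 11 were tested, with 2 higher, 6 lower and 3 not called (median -0.75). Lpl, lipoprotein lipase, had 383, 329 and 415 in the knockout, against 20121, 15217 and 14691 in wild-type (log2 difference -5.46 ± 0.16 SE), and Pnliprp2, a pancreatic lipase-related gene, fell by 4.80 on the log2 scale. Lipg, endothelial lipase, rose by 1.14 ± 0.24.

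Relatives of the pepsin genes moved both ways, as did all genes tested (21.5% called lower and 23.3% higher). Of 7 other aspartic protease genes 6 were in the table and 5 were tested, with 1 higher, 2 lower and 2 not called (median 0.08). Ctsd, the lysosomal cathepsin D gene, fell by 0.75 on the log2 scale (limma adjusted p = 0.00775). Bace2, a membrane aspartic protease gene, rose by 0.52 ± 0.18 and Bace1 fell by 0.42, calls that were each lost in 11 of 20 alternatives. Ctse, which encodes cathepsin E of gastric surface cells, had 35918, 27700 and 35175 in the knockout and 37399, 26235 and 29923 in wild-type, and was not called. The largest difference in the list was that of Napsa, the napsin A gene, at 23.6, 16.3 and 22.1 in the knockout and 9.79, 4.94 and 16.5 in wild-type, which was named after its values were seen and was not called (log2 difference 1.04, 95% interval -0.32 to 2.40, limma adjusted p = 0.196). Of 14 metallocarboxypeptidase genes 9 were tested, with 2 higher, 1 lower and 6 not called (median -0.14). Cpm, a membrane carboxypeptidase gene, fell by 2.87 on the log2 scale, while Cpa3, a mast cell carboxypeptidase gene, and Cpd rose by 2.01 ± 0.51 and 1.01 ± 0.18. Of 10 other secreted phospholipase A2 genes 6 were tested, with 2 higher and 4 not called (median 0.17). Pla2g12b rose by 2.34 ± 0.33 (limma adjusted p = 2.70e-04), in the opposite direction to Pla2g1b. Pla2g10 rose by 0.57 ± 0.20, a call lost in 9 of 20 alternatives.

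Chitinase relatives are given beside the 44.7% of all genes tested that were called in either direction. Among 8 other chitinase and chitinase-like genes found, all tested, 1 was lower and 7 were not called (median -0.21). The lower one was Chi3l1 (Chil1), at 7.56, 8.13 and 10.6 normalized counts in the knockout and 17.1, 275 and 132 in wild-type (log2 difference -3.18 ± 0.84 SE, limma adjusted p = 0.0106). Wild-type replicate 2 and then replicate 3 were highest, the order of Krt5 in the same libraries, and the part of squamous tissue in this was not tested. The call was lost without wild-type replicate 3 (adjusted p = 0.0596), without wild-type replicates 2 and 3 (log2 difference -0.91) and in the authors' deposited table (adjusted p = 0.111). Chi3l4 (Chil4), named after its values were seen, stood at 2814 in knockout replicate 1, against 2.96 and 10.6 in knockout replicates 2 and 3 and 9.79, 3.70 and 25.2 in wild-type, and was not called (log2 difference 2.20 ± 1.92 SE).

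**Figure D5:**
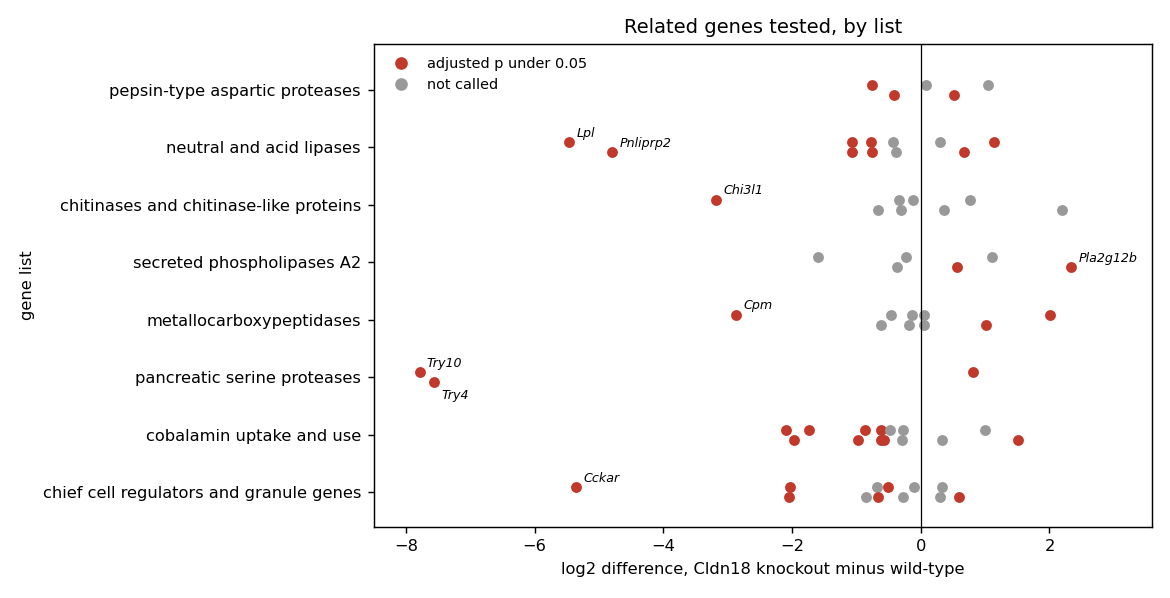
Log2 difference, Cldn18 knockout minus wild-type, of each tested gene of 8 related lists; red points passed an adjusted p of 0.05 in limma, and called genes with a difference well beyond 2 are named. Try10 lies at -7.78, Try4 at -7.56, Lpl at -5.46, Cckar at -5.36 and Pnliprp2 at -4.80, while most other points lie between -2 and 2.

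Downstream of intrinsic factor, cells take up cobalamin through receptors and process it in lysosomes and mitochondria. Of 14 such genes, all tested, 1 was higher, 8 were lower and 5 were not called (median log2 difference -0.59). By comparison, 21.5% of all genes tested were called lower and 23.3% higher. Tcn2, the plasma cobalamin carrier gene, fell to 674 ± 57 normalized counts in the knockout, against 2895 ± 408 in wild-type (SD, n = 3 each), and Cd320, the receptor gene for that carrier, fell to 236 ± 35, against 928 ± 115 (limma adjusted p = 3.20e-06 and 1.78e-05). Mut, the mitochondrial methylmalonyl-CoA mutase gene, fell by 1.74 on the log2 scale. Mtrr, which reactivates methionine synthase, rose to 617 ± 22 in the knockout, against 218 ± 30 in wild-type. The intrinsic factor receptor genes of the ileum, Cubn and Amn, were at 26.9 to 35.9 and 1.89 to 17.7 in the knockout and at 14.8 to 64.1 and 0 to 14.7 in wild-type.

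Regulators and granule genes of chief cells were called mostly as lower. Of all genes tested, 21.5% were called lower and 23.3% higher, 44.7% in either direction. Of 12 such genes, all tested, 1 was higher, 5 were lower and 6 were not called (median log2 difference -0.59). The most abundant were Rab3d, a granule GTPase gene (8274, 7678 and 8575 in the knockout and 8532, 5979 and 5770 in wild-type, not called), Xbp1, a secretory pathway factor gene (6818, 6139 and 7465 in the knockout and 9693, 8006 and 7126 in wild-type, not called), and Nfib, which fell by 0.50 on the log2 scale (limma adjusted p = 0.0325), a call lost in 7 of 20 alternatives. Rab3d passed as higher with array weights (limma adjusted p = 0.0388), on leaving out wild-type replicate 1 (0.0156) and with scaling to the total outside Gm26924 and mitochondrial reads (0.0355). Xbp1 was called lower under upper quartile scaling (0.0212), quantile normalization (0.00484) and without wild-type replicates 2 and 3 (0.0495). Runx1, Bhlha15 and Cckar were named after their values were seen. The 1 gene called higher was Runx1, which rose by 0.59 on the log2 scale (adjusted p = 0.00308 by limma). Runx1 stood at 2115, 2122 and 2164 in the knockout and at 1451, 1457 and 1355 in wild-type. Bhlha15, whose product Mist1 shapes zymogen granules, had 243, 106 and 333 in the knockout, against 1078, 862 and 657 in wild-type (log2 difference -2.04 ± 0.36 SE, limma adjusted p = 0.00115). Cckar, a cholecystokinin receptor gene, had 33.1, 68.0 and 58.6 in the knockout, against 2564, 2084 and 1807 in wild-type (log2 difference -5.36 ± 0.27 SE, limma adjusted p = 3.82e-07).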

How the data were processed

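STAR, featureCounts, DESeq and build mm10 are named in the submitters' processing notes. Their versions, the annotation and strandedness: not given in the sources used here. The authors deposited normalized counts, a signal (38720 rows), and a comparison table with group means, a fold (a ratio) and p-values, used here only as an alternative. Deposited values were whole multiples of 1 number per library (100% within 0.05 reads), which gave whole reads.

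The fit used limma 3.58.1 (R 4.3.3; lmFit, eBayes with trend, two-sided) on log2(normalized count + 1), with Benjamini-Hochberg adjustment over 17432 genes with at least 10 in at least 3 of 6 libraries. Calls needed an adjusted p under 0.05. Fold changes on this scale understate changes of low genes. The procedure was tested on simulated data with 200 genes changed. That is far fewer than were called here, so the test does not cover a comparison this broad. Alternatives included edgeR 4.0.16 and DESeq2 1.42.0 on the recovered reads. Exon lengths and coordinates came from GENCODE vM21, promoter windows from RefSeq (GRCm38.p6), transcript matches from blastn 2.17.0 over at least 100 bases.

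The 10 genes and 17 other lists were chosen with earlier results of these data known. The naming rule took the 10 and up to 4 called genes of each related list by size of difference. It also took the 3 most abundant markers of each marker list. Of these, only those a result turns on are printed. Other genes, among them Ctse, Cpa1, Amy2a5, Cubn, Amn, Slc26a7, Krt6a and Gast, were named outside this rule. Same-numbered libraries were not taken as pairs.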

Additional observations from a re-analysis of the deposited data

How the results depend on the processing

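Pgc, Gif, Chia, Clps and Pla2g1b kept their direction and call in all 20 alternatives, with log2 differences of -5.62 to -4.44, -4.44 to -3.70, -14.48 to -12.73, -9.81 to -8.75 and -10.23 to -9.25. Pga5 stayed lower (-0.84 to -0.47), and its call was lost in 3 alternatives. The genes called higher among the 10 numbered 1 without a filter on low values, with edgeR, with DESeq2, with the replicate block and without wild-type replicates 2 and 3, and 2 after quantile normalization, against 0. Leaving out 1 library gave 0 to 1 higher and 5 to 6 lower. Over all genes the same step gave 3138 to 4379 higher and 2969 to 3899 lower, against 4053 and 3743. A log2 difference of at least 1 left 1957 higher by construction. The authors' deposited table gave 2024 lower and the fit without wild-type replicates 2 and 3, added after seeing the data, 2488 lower, and the cause was not tested. That fit holds a lone wild-type library, assumed to vary like the others, and reversed the uncalled differences of Rab3d (-0.063), Tagln (-0.086) and Tff1 (-0.22). The median of all genes was -0.15 after upper quartile scaling and 0.10 after quantile normalization, against -0.02.

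Deviations from the group means correlated at -0.00366, 0.0214 and -0.173 between libraries of the same number, and the closest match of each library was one of another number. The replicate block gave 3726 genes higher and 3626 lower, and Cym was called (adjusted p = 0.0125). Lipf was tested only without the filter on low values (log2 difference -0.39, limma adjusted p = 0.819). Low read counts limit Lipf, Ctrb1 and the knockout values of Chia.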
